A study of Rattus norvegicus with 10 samples.

Results

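The genes described here are 9 named members of the disease-associated microglia signature, namely Gpnmb, Apoe, Trem2, Tyrobp, Cst7, Itgax, Lpl, Spp1 and Clec7a. They were chosen by name, with earlier results of these data known. Of the 9, 7 were listed among the 14166 genes of the deposited bulk gene table, in which Cst7 and Itgax were not listed, and all 9 were among the 25399 genes of the nucleus matrices. The tissue was the dentate gyrus ipsilateral to a lateral fluid percussion injury (LFPI), a traumatic brain injury (TBI) made by a pressure pulse of fluid onto the intact dura of young adult male Sprague-Dawley rats. Bulk RNA-seq covered 3 TBI rats and 3 sham rats 3 weeks after the injury or sham procedure, and single-nucleus RNA-seq (snRNA-seq) covered 2 TBI rats and 2 control rats, of which 1 was sham and 1 naïve. TBI and sham rats had a craniectomy 3 days before the pulse, under isoflurane and with buprenorphine, and sham rats had every step except the pulse, while the naïve rat had no surgery. The sham and naïve rats were pooled as controls for the nuclei, as in the study, so that the control group mixed rats with and without a craniectomy. A replicate number names a different rat in bulk RNA-seq and in snRNA-seq.

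Microglia are the resident macrophages of the brain. Around dying cells, myelin debris and protein deposits they can take on a disease-associated state, in which TREM2, a lipid-sensing surface receptor, signals through the adaptor TYROBP (DAP12) and the kinase SYK, and in which genes for lipid transport, lysosomal work and adhesion are switched on. APOE carries the lipids that TREM2 binds, LPL hydrolyses triglycerides, CLEC7A (Dectin-1) is a receptor for glucans that also signals through SYK, GPNMB is a glycoprotein of lysosomes and the cell surface, SPP1 (osteopontin) is a secreted ligand of CD44 and integrins, ITGAX (CD11c) is an integrin subunit, and CST7 (cystatin F) inhibits cysteine proteases in lysosomes. Several of these genes are also used by other brain cells: astrocytes are the main source of APOE in the healthy brain, and oligodendrocyte precursors are known to express Gpnmb.

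The promoters of Gpnmb, Trem2 and Spp1 are shown because microglial Gpnmb and Spp1 were highest in 1 injured rat of the snRNA-seq, while Trem2 was not. RefSeq (build GRCr8) held promoter sequence for 7 of the 9 members. The 250 bases before the transcription start are given 5′ to 3′ in the gene's direction, and capitals mark a match to a searched motif. These stretches lie upstream of the first exon, for Gpnmb at chr4:79340878-79341127 on the plus strand, for Trem2 at chr9:20151780-20152029 on the minus strand and for Spp1 at chr14:5619805-5620054 on the minus strand.
Gpnmb: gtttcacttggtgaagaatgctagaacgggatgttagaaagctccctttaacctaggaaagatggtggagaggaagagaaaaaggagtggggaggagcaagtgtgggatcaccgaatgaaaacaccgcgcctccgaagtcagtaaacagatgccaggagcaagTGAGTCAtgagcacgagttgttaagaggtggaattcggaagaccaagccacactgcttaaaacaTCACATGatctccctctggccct
Trem2: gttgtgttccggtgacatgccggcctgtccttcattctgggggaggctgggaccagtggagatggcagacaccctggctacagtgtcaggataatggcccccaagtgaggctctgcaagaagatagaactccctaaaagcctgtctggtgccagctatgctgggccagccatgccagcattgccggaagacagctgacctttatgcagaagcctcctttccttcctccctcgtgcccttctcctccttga
Spp1: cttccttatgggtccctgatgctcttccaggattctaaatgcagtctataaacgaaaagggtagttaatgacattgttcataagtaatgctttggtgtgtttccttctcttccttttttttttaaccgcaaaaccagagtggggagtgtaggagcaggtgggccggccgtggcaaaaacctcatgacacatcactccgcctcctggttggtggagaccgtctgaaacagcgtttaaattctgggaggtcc
The motifs searched on both strands, whose matches here do not overlap, were CATGTGA (the M-box read by MITF and TFEB family factors), CACGTG (an E-box), GAGGAAGT (a PU.1 site) and TGANTCA (AP-1). The Gpnmb promoter held the M-box on the opposite strand, 23 to 17 bases before the start, and an AP-1 match 87 to 81 bases before it. Of 33469 promoters of the same length, 3.36% held the M-box, 5.59% the E-box, 2.04% the PU.1 site and 6.34% the AP-1 site. Among the other members, Itgax held an AP-1 match 56 to 50 bases before its start, and the promoters of Apoe, Trem2, Cst7, Spp1 and Clec7a held no match. A match is a description of these letters and not a sign of binding.

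The bulk libraries held 24730290 to 43912297 estimated counts in the gene table, and levels are given as CPM, the counts scaled to a library total of 1000000. In the nuclei, 55124 of 55863 deposited barcodes passed the study's filters, from 11285 to 16931 per rat, with a median of 1647 to 2652 unique molecular identifiers (UMIs) per nucleus. Libraries stood apart in both data sets. In bulk, the TBI 3 library held 1045 CPM of meningeal fibroblast markers (54.0 to 214 in the others), and the sham 2 library held 18145 CPM of oligodendrocyte markers (5428 to 8416 in the others). In the nuclei, 66.9% of the naïve rat's microglia lay in a cluster that held 0.180 to 3.06% of those of the other rats. The nucleus libraries shared 45 to 60 cell barcodes per pair, at most 0.452% of the smaller library.

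In bulk dentate gyrus, Gpnmb, Trem2, Tyrobp and Apoe were higher in every TBI library than in every sham library, by 4.91-fold, 2.61-fold, 2.85-fold and 1.66-fold of the group means. Spp1 and Clec7a were high in the TBI libraries and in 1 sham library, and Lpl overlapped between the groups. The 4 separated members were read against a background in which 11.7% of all 14166 genes were higher in every TBI library. With edgeR's quasi-likelihood test and Benjamini-Hochberg adjustment over all genes, 0 of the 7 members and 0% of all genes passed an adjusted p of 0.05. At an unadjusted p under 0.05, edgeR held the same 4 members and 1360 genes, of which 1162 (8.2%) were higher and 198 (1.4%) lower in TBI. DESeq2, run as an alternative, called the same 4 members and 349 genes, of which 338 (2.39%) were higher and 11 (0.0777%) lower. In bulk tissue, more cells of a type and more RNA per cell cannot be told apart.

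**Figure D1:**
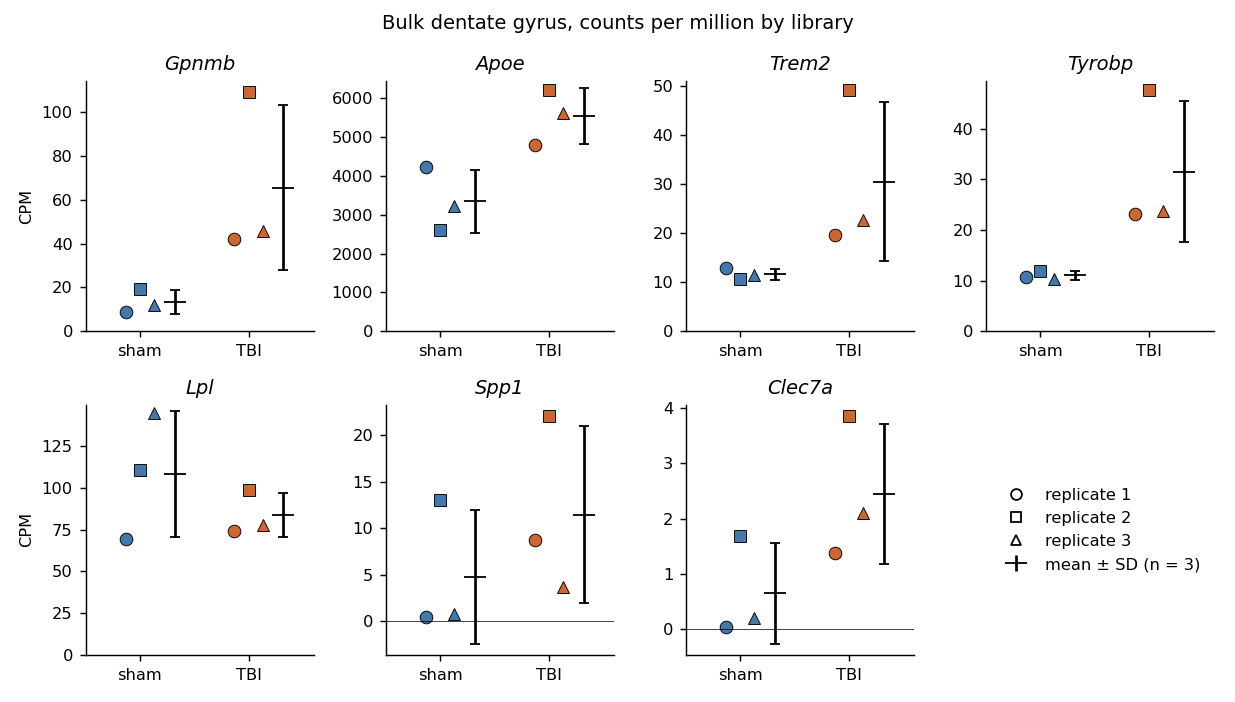
Level (CPM) of the 7 members listed in the bulk gene table, by library, with symbols for the replicate number and the group mean ± SD (n = 3) beside the points. The 3 TBI libraries lie above the 3 sham libraries for Gpnmb, Apoe, Trem2 and Tyrobp, and the sham 2 library lies among the TBI libraries for Spp1 and Clec7a.

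The receptor and its adaptor moved alike. Trem2 stood at 12.8, 10.6 and 11.5 CPM in the sham libraries and at 19.5, 49.0 and 22.7 CPM in the TBI libraries. Tyrobp, which carries the signal of TREM2 and of other receptors, stood at 10.8, 12 and 10.4 CPM in sham and at 23.2, 47.6 and 23.7 CPM in TBI. The sham libraries were tight in both genes, the TBI libraries did not overlap them, and the TBI 2 library was the highest. The group means were 30.4 ± 16.2 against 11.6 ± 1.10 CPM for Trem2 and 31.5 ± 13.9 against 11 ± 0.848 CPM for Tyrobp (SD, n = 3). The log2 fold change by edgeR was 1.35 for Trem2 (SE 0.34, adjusted p = 0.242) and 1.48 for Tyrobp (SE 0.29, adjusted p = 0.196). DESeq2 gave adjusted p-values of 0.00982 for Trem2 and 0.000517 for Tyrobp. Without the TBI 2 library the log2 fold changes were 0.80 for Trem2 and 1.02 for Tyrobp.

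Clec7a, the other SYK-coupled receptor of the group, stood at 0.0381, 1.69 and 0.205 CPM in sham and at 1.37, 3.85 and 2.10 CPM in TBI. The sham 2 library lay above the TBI 1 library, so the groups overlapped. The log2 fold change was 1.91 (SE 1.03, edgeR adjusted p = 0.645), and without the sham 2 library it was 4.11 (adjusted p = 0.274). Sham 2 was also the library with the highest level of monocyte and neutrophil markers, at 18.6 CPM against 1.15 to 5.41 CPM in the others, over the 2 of 6 listed markers that the table held. The part of those cells in the Clec7a level was not tested.

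Gpnmb stood at 8.80, 19.3 and 12 CPM in sham and at 42.0, 109 and 45.6 CPM in TBI. The lowest TBI library was above the highest sham library, and TBI 2 stood above both other TBI libraries. The means were 65.6 ± 37.8 CPM in TBI and 13.4 ± 5.36 CPM in sham (SD, n = 3), with a log2 fold change of 2.26 (SE 0.45, edgeR adjusted p = 0.196, DESeq2 adjusted p = 2.12e-05). Without TBI 2 the log2 fold change was 1.64. Within the rats with an injury or sham procedure dated before July (sham 1, sham 2 and TBI 1) the log2 difference was 1.69. Within those dated July or later (sham 3, TBI 2 and TBI 3) it was 2.55.

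Spp1, the secreted ligand, stood at 0.495, 13.1 and 0.774 CPM in sham and at 8.69, 22.1 and 3.67 CPM in TBI. The sham 2 library again lay among the TBI libraries, while the other 2 sham libraries lay below all 3 TBI libraries. The log2 fold change was 1.25 (SE 1.19, edgeR adjusted p = 0.813). Leaving out sham 2 took it to 4.11 (adjusted p = 0.274), leaving out sham 1 or sham 3 took it to 0.72 and 0.70, and leaving out TBI 2 took it to 0.31.

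The lipid genes parted. Apoe stood at 4223, 2612 and 3220 CPM in sham and at 4801, 6226 and 5618 CPM in TBI, with means of 3352 ± 814 and 5548 ± 715 CPM (SD, n = 3). Its groups did not overlap, although the TBI 1 library lay close above sham 1. The log2 fold change was 0.69 (SE 0.19, edgeR adjusted p = 0.277, DESeq2 adjusted p = 0.0273). The summed level of astrocyte markers moved in the same direction, from 2673 to 3472 CPM in sham to 5070 to 8420 CPM in TBI. Of the 11 markers in the table, 10 were higher in TBI, with a median log2 difference of 0.327. In the nuclei, gated astrocytes were 6.50 and 8.61% in the naïve and sham rats and 5.32 and 4.97% in TBI 1 and TBI 2. The part of astrocytes in the Apoe level was not tested. Lpl, the lipase, stood at 69.5, 111 and 145 CPM in sham and at 74.4, 99.0 and 77.9 CPM in TBI, and the groups overlapped. Its log2 fold change was −0.41 (SE 0.26, edgeR adjusted p = 0.694), and it was −0.15 without sham 3 and −0.66 without sham 1 (adjusted p = 0.322).

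Markers of microglia moved with the members. The summed level of 15 microglial markers, none of them a member, was 214 to 259 CPM in sham and 391 to 712 CPM in TBI, and 15 of 15 were higher on average in TBI. Each member was therefore also set against the mean log2 CPM of these markers in the same library, which was 1.04 higher in TBI. Relative to it, Gpnmb was 1.18 higher in TBI on the log2 scale and Tyrobp was 0.39 higher. Every TBI library lay above every sham library in both, as for 0.614% of all 14166 genes set against the markers in the same way. The markers were higher in TBI, so this subtraction lowered most genes, and 0.614% is no reference for genes of microglia. Lpl differed by −1.36 with every TBI library below, as it did for 73.9% of all genes, so its lower value was that of most genes. The exact permutation test gave p = 0.1 for each of these 3 members, which is the smallest p that 3 against 3 libraries allow. Trem2 differed by 0.22 relative to the markers, from 0.290 to 0.954 in sham and from 0.609 to 1.13 in TBI (exact permutation p = 0.5). For Apoe the difference was −0.29 (exact permutation p = 0.5), for Spp1 it was 1.32 and for Clec7a it was 1.99 (exact permutation p = 0.4 for both). These 4 values moved most with a sham library. Without sham 1 they were 0.38 for Trem2, −0.029 for Apoe, 0.52 for Spp1 and 0.93 for Clec7a, and without sham 2 they were 0.048, −0.57, 2.66 and 3.19. Perivascular macrophage markers were also higher in TBI, at 26.5 to 73.4 CPM against 14.5 to 17.9 CPM in sham, and their part in these values was not tested.

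**Figure D2:**
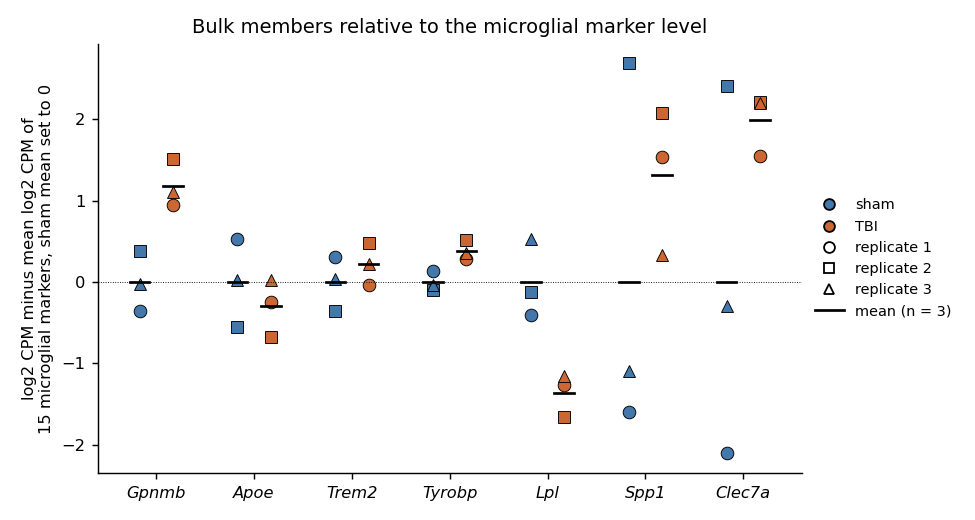
Log2 CPM of each bulk member minus the mean log2 CPM of 15 microglial markers in the same library, with the sham mean of each gene set to 0; symbols give the replicate number and bars the group mean (n = 3). Gpnmb and Tyrobp lie higher and Lpl lower in all 3 TBI libraries than in all 3 sham libraries, while Trem2 and Apoe overlap and Spp1 and Clec7a spread widely in sham.

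The lists of partner genes around the members are described next, in the same fit. Each list is given by its counts beside all genes, of which 11.7% were higher and 3.04% lower in every TBI library and whose median log2 fold change was −0.00293. In each of the 6 lists edgeR called 0 genes at an adjusted p of 0.05. The TBI 3 library held the most meningeal fibroblast markers (1045 CPM), and the part of those cells in the list genes was not tested.

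Of 22 genes of TREM2, TYROBP and CLEC7A signalling, 14 were higher in every TBI library and 0 were lower, 13 had an unadjusted p under 0.05 by edgeR, and 4 were called by DESeq2. The list's median log2 fold change was 0.81. Hcst (DAP10), the sister adaptor of TYROBP, stood at 0.114, 0.0734 and 0.0455 CPM in sham and at 0.607, 0.719 and 0.534 CPM in TBI, a log2 fold change of 2.96 (SE 0.66) on 2 to 22 counts per library. Syk, the kinase downstream of both receptors, stood at 8.62, 7.28 and 6.22 CPM in sham and at 11.3, 18.1 and 12.6 CPM in TBI (log2 fold change 0.89, SE 0.22). The DESeq2 calls were Syk, Vav1 (1.61), a guanine nucleotide exchange factor, Ptpn6 (1.43), the phosphatase SHP-1, and Ms4a4a (1.33). Ms4a4a was highest in TBI 3, at 4.97 CPM, and Syk, Vav1 and Ptpn6 were highest in TBI 2. Plcg2, the phospholipase that SYK activates, had a log2 fold change of 0.89 and Card9, the adaptor downstream of CLEC7A, of 0.83, and neither was called. Sirpa, an inhibitory receptor that is also abundant on neurons, had a log2 fold change of 0.08 (SE 0.09), and its TBI libraries lay only just above the sham libraries.

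For lipid handling around APOE and LPL, 24 genes are described, of which 19 were in the table, with a median log2 fold change of 0.22. Of these, 12 were higher and 1 lower in every TBI library, and DESeq2 called 6 as higher. Abca1, the pump that loads cholesterol onto APOE, stood at 30.4, 60.4 and 45.2 CPM in sham and at 79.6, 133 and 86.1 CPM in TBI (log2 fold change 1.10, DESeq2 adjusted p = 0.0164). Its relative Abcg1 was at 0.02 and the APOE receptor Lrp1 at 0.21, and neither was called. Vldlr (−0.35), named after its values were seen, was the gene lower in every TBI library and was not called. The further DESeq2 calls were Npc2 (1.46), which moves cholesterol out of lysosomes, Ch25h (2.0), a cholesterol hydroxylase, Plin2 (0.85), a lipid droplet coat protein, Pltp (0.81) and Clu (0.70), the apolipoprotein clusterin. Angptl4, an inhibitor of LPL, had a log2 fold change of 0.46 and was not called, and Gpihbp1, which anchors LPL, was not listed.

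Of 20 receptors and partners of SPP1, GPNMB and ITGAX, 17 were in the table, with a median of 0.69; 7 were higher in every TBI library, 0 were lower, and DESeq2 called 4. Itgb2, the β subunit that pairs with ITGAX, had a log2 fold change of 1.39 (SE 0.35), with 11.3 to 15.9 CPM in sham and 22.5 to 56.1 CPM in TBI. Fermt3 (1.37), which activates integrins, Icam1 (1.46), a ligand of β2 integrins, and Itga5 (1.66) were the other calls. Icam1 and Itga5 were highest in TBI 3, at 12.4 and 9.61 CPM, and Itgb2 and Fermt3 were highest in TBI 2. Cd44, the SPP1 receptor, overlapped between the groups, at 3.62, 13.6 and 3.67 CPM in sham and 11.3, 23.9 and 12.4 CPM in TBI, with sham 2 again the high sham library. Itgam was not listed.

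All 8 listed cysteine proteases of lysosomes, legumain included, were in the table, with a median of 0.90. Of these, 6 were higher in every TBI library and DESeq2 called 5. Whether cystatin F acts on each of them was not tested. Ctsc, the cathepsin C that cystatin F inhibits, stood at 3.12, 6.71 and 3.80 CPM in sham and at 8.21, 15.3 and 19.3 CPM in TBI (log2 fold change 1.61, DESeq2 adjusted p = 0.00613). Ctsz (1.52), Ctsh (1.01), Ctss (0.92) and Lgmn (0.88) were the other calls, and Ctsl (0.35) was not called.

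Of 25 other genes of published disease-associated microglia signatures, 20 were in the table, with a median of 0.73; 12 were higher in every TBI library, 0 were lower, and DESeq2 called 7. Axl, a receptor for apoptotic cells, stood at 44.9, 47.6 and 38.0 CPM in sham and at 68.8, 96.6 and 94.9 CPM in TBI (log2 fold change 0.96). Cd68, a lysosomal glycoprotein of macrophages, stood at 1.75, 2.35 and 1.73 CPM in sham and at 9.95, 25.3 and 8.44 CPM in TBI (log2 fold change 2.88, DESeq2 adjusted p = 3.15e-07). The remaining calls were Capg (1.87), Lgals1 (1.28), Cd63 (0.92), B2m (0.76) and Timp2 (0.67). Lgals1 and Timp2 were highest in TBI 3, at 35.7 and 250 CPM, and Capg, Cd63 and B2m were highest in TBI 2. Lgals3 (1.97), Igf1 (0.92) and Csf1 (0.45) had higher TBI libraries without a call, and Cd9 (0.24) overlapped.

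Genes of homeostatic microglia, which are known to be low in the disease-associated state, were not lower in bulk tissue. Of 12 listed, 11 were in the table, with a median of 0.80; 9 were higher in every TBI library, 0 were lower, and DESeq2 called 5. P2ry12, the purinergic receptor of resting microglia, stood at 12.9, 11.7 and 10.7 CPM in sham and at 20.6, 40.0 and 16.8 CPM in TBI (log2 fold change 1.11, DESeq2 adjusted p = 0.0417). Cx3cr1 (1.0), Olfml3 (1.57), Cst3 (0.80) and Slco2b1 (0.84) were the other calls, and Tmem119 (0.60) was not called. Olfml3 was highest in TBI 3, at 6.91, 5.39 and 19.9 CPM in TBI 1, TBI 2 and TBI 3. P2ry12, Cx3cr1, Cst3 and Slco2b1 were highest in TBI 2. P2ry12 and Cx3cr1 are also among the 15 microglial markers. The mean log2 CPM of those markers was 1.04 higher in TBI. The partner lists were not set against it, so their levels per microglial cell were not tested.

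**Figure D3:**
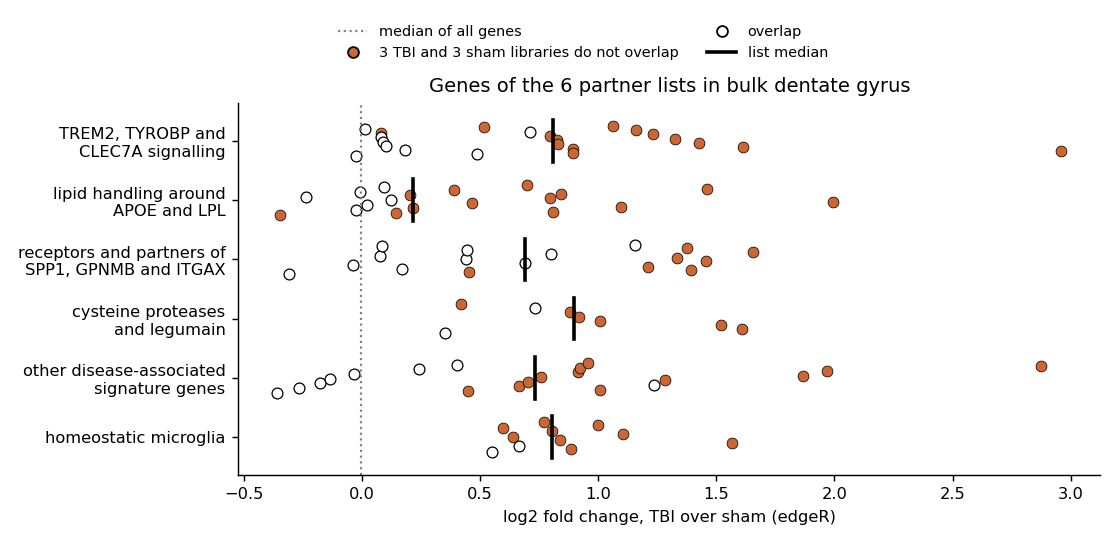
Log2 fold change, TBI over sham (edgeR), of each gene of the 6 partner lists in bulk dentate gyrus; filled points are genes whose 3 TBI and 3 sham libraries do not overlap, black bars the list medians and the dotted line the median of all genes. The list medians lie between 0.22 for lipid handling and 0.90 for the cysteine proteases, and Vldlr is the filled point below 0.

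Over the 6 libraries, the mean z-score of the members was −0.952, −0.222 and −0.528 in sham and 0.207, 1.18 and 0.310 in TBI. Of 13599 genes compared, those closest to this profile by Pearson's r were Slc44a2 (0.999), St14 (0.994), Mpeg1 (0.993), Cd81 (0.992) and Plek (0.992), which is a description over 6 libraries that share the injury contrast and the high TBI 2 library. Mpeg1, which encodes a pore-forming protein of macrophages, ran from 24.9 to 41.9 CPM in sham and from 56.8 to 140 CPM in TBI.

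Nuclei were assigned to classes by the UMIs of marker genes, none of them a member. Microglia by this gate were 487 of the naïve rat's nuclei (4.32%, exact binomial 95% interval 3.95 to 4.71%), 556 of the sham rat's (3.28%, 3.02 to 3.56%), 757 of the TBI 1 rat's (6.05%, 5.64 to 6.48%) and 1242 of the TBI 2 rat's (8.63%, 8.17 to 9.10%), 3042 in all. Both TBI rats were above both controls, by 3.54 percentage points of the means, and the exact permutation test over rats gave p = 0.333, the smallest that 2 against 2 allows. The gated nuclei carried all of the 15 microglial markers that the matrices held, at summed levels of 5904, 4574, 3665 and 5825 CPM (of the UMIs of the class) in the naïve, sham, TBI 1 and TBI 2 rats, against 4.25 to 12 CPM of perivascular macrophage markers and 1.14 to 12.8 CPM of monocyte and neutrophil markers. The gate itself used the microglial and perivascular macrophage markers. The gated nuclei were shallow, with a median of 668 to 895 UMIs, and glutamatergic neuron markers stood at 8697 to 11669 CPM in them.

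In gated microglia, the Gpnmb and Spp1 levels of the TBI 2 rat lay above the counting intervals of the other 3 rats. Of the 9 members, 3 passed the filter on low counts (Apoe, Trem2 and Tyrobp), and edgeR called 0 of these. Gpnmb gave 3, 1, 3 and 55 UMIs in the naïve, sham, TBI 1 and TBI 2 rats, or 3.42, 1.42, 2.23 and 38.8 CPM, with an exact Poisson 95% interval of 29.2 to 50.5 CPM in TBI 2. The 55 UMIs lay in 47 nuclei, 3.78% of that rat's microglia, against 0.616% in the naïve, 0.180% in the sham and 0.396% in the TBI 1 rat. For comparison, Gpnmb was found in 0.0804, 0.145, 0.320 and 0.309% of glutamatergic neurons at median depths of 2805, 2086, 2506 and 1841 UMIs. The share in the TBI 1 rat's microglia was close to that in its neurons. Thinned to 500 UMIs per nucleus, Gpnmb was found in 34 microglial nuclei of TBI 2 (2.74%), 1 of sham, 0 of naïve and 0 of TBI 1.

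Spp1 gave 0, 0, 0 and 16 UMIs in the microglia of the naïve, sham, TBI 1 and TBI 2 rats, the last at 11.3 CPM (6.45 to 18.3) in 14 nuclei. A floor of 3 counts stands at 3.42, 4.25 and 2.23 CPM in the naïve, sham and TBI 1 rats, and the exact Poisson 95% intervals of the zeros reach 4.2, 5.23 and 2.74 CPM. Clec7a gave 1, 1, 0 and 7 UMIs, the last at 4.94 CPM (1.99 to 10.2), an interval that overlaps those of the other 3 rats. Itgax gave 1, 0, 0 and 1 UMIs and Cst7 gave 1, 1, 0 and 0, so that no comparison of these 2 genes was possible at this depth. Intervals and floors cover counting error only.

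Of the 1242 microglia of the TBI 2 rat, 47 held a Gpnmb UMI, 14 an Spp1 UMI and 7 a Clec7a UMI, and no nucleus held more than 1 of the 3 genes. At numbers this small, few shared nuclei could have been found, so the 3 genes are not shown to lie in separate nuclei. For Gpnmb, 0 of 47 allows a share of up to 6.38%. Of the 47, 30 (63.8%) held Apoe, 5 held Trem2 and 6 held Tyrobp. Their median depth was 751 UMIs against 667 in the other microglia of that rat. Microglial markers stood at 6222 CPM in the 47 nuclei and at 5809 CPM in the others. Perivascular macrophage markers gave 0 UMIs in the 47 nuclei and stood at 12.5 CPM in the others. Markers of oligodendrocyte precursors, the class with steady Gpnmb, stood at 1514 against 1178 CPM. The gate chose nuclei by these microglial markers and moved those with 2 perivascular macrophage markers to another class. The marker levels therefore cannot tell the origin of the Gpnmb UMIs. Among gated microglia that also lay in the 2 clusters led by microglial markers, nuclei with Gpnmb numbered 1, 0, 1 and 37 in the naïve, sham, TBI 1 and TBI 2 rats.

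**Figure D4:**
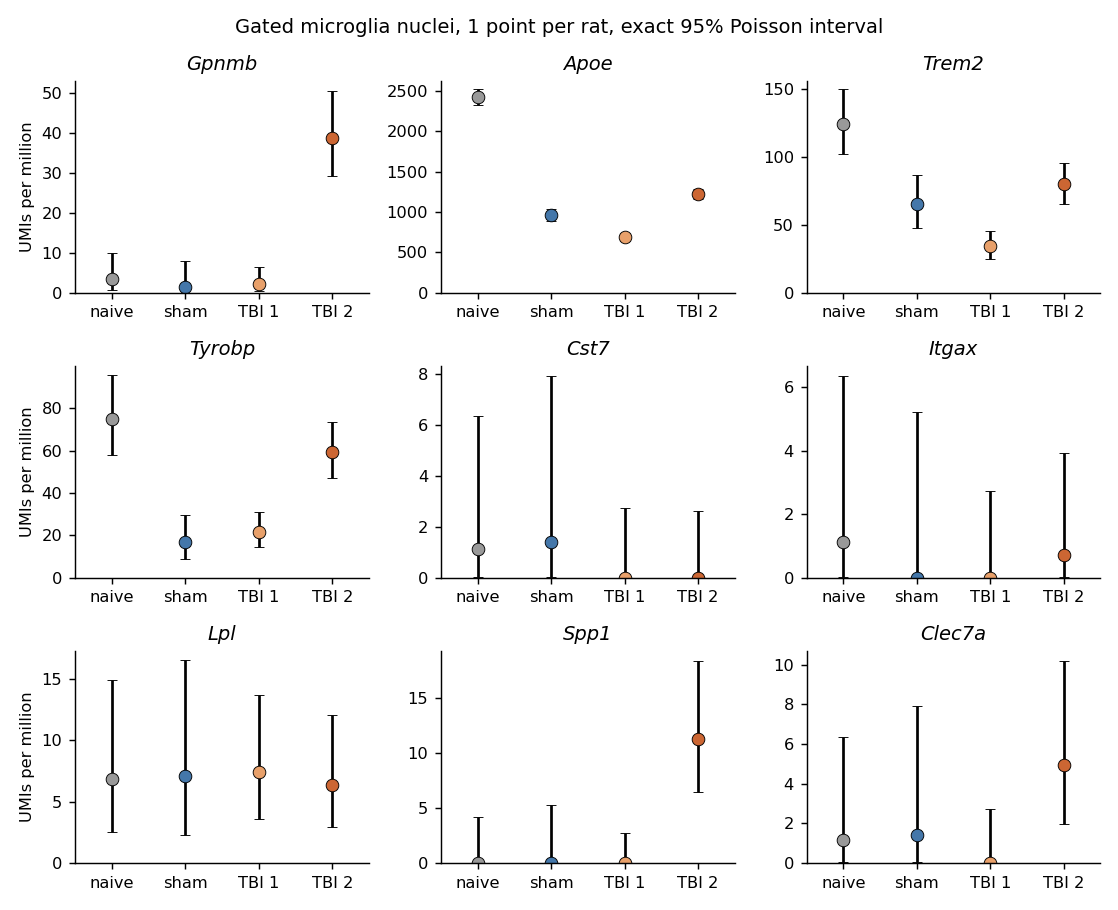
Level (CPM) of the 9 members in gated microglia, 1 point per rat (naïve, sham, TBI 1 and TBI 2), with the exact Poisson 95% interval of the count. For Gpnmb and Spp1 the TBI 2 rat lies above the intervals of the other 3, while Apoe, Trem2 and Tyrobp are highest in the naïve rat and Lpl is level over all 4.

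In the 3 members tested, the rats of each group spread widely. Apoe stood at 2421 and 964 CPM in the naïve and sham rats and at 689 and 1223 CPM in the TBI rats. Trem2 stood at 124 and 65.2 CPM in the controls and at 34.2 and 79.7 CPM in TBI. Tyrobp stood at 75.2 and 17 CPM in the controls and at 21.5 and 59.3 CPM in TBI. In all 3 genes the naïve rat was the highest and the controls enclosed at least 1 TBI rat, so the groups overlapped. The log2 fold changes, TBI over control, were −0.86 for Apoe (SE 0.43), −0.78 for Trem2 (SE 0.41) and −0.26 for Tyrobp (SE 0.59), each with an edgeR adjusted p of 0.998. Without the naïve rat they were −0.06, −0.24 and 1.2, and without the sham rat Apoe was at −1.37 (adjusted p = 0.0687). Of all 10251 genes tested, 19.1% were higher and 13.7% lower in both TBI rats than in both controls, and none of the 3 members was among them. Over these genes edgeR called 0 (0%), with 401 at an unadjusted p under 0.05, and DESeq2 called 0, with 119.

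Lpl did not separate the rats, at 6.83, 7.09, 7.42 and 6.35 CPM on 5 to 10 UMIs. With no filter on low counts, edgeR called Gpnmb (log2 fold change 2.97, adjusted p = 0.0145) on the UMIs of the TBI 2 rat, in a fit that called 34 of 17314 genes (0.196%), and not Spp1 (5.65, adjusted p = 0.450).

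Across the classes of nuclei, Trem2 and Tyrobp were concentrated in microglia, which held 55.8% and 58.8% of their UMIs, while Apoe, Gpnmb, Lpl and Cst7 had most of their UMIs elsewhere. Trem2 stood at 75.8 ± 37.4 CPM in microglia (SD over 4 rats) and at 6.12 ± 3.87 CPM in astrocytes, the next class. Tyrobp stood at 43.2 ± 28.5 CPM in microglia, followed by perivascular macrophages at 24.6 CPM, which was 1 UMI in 44 nuclei, and then by levels of at most 3.49 CPM. The order below microglia did not separate beyond the spread between rats for either gene. Microglia were the highest class for 5 of the 9 members (Trem2, Tyrobp, Itgax, Spp1 and Clec7a), although the series held 3 UMIs of Itgax, 40 of Spp1 and 37 of Clec7a in all. Without the TBI 2 rat the highest class for Spp1 was astrocytes, and without the naïve rat that for Tyrobp was perivascular macrophages, on their 1 UMI. Of the 40 Spp1 UMIs, 35 were from the TBI 2 rat.

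Apoe was highest in astrocytes, at 9232, 2630, 2729 and 4067 CPM in the naïve, sham, TBI 1 and TBI 2 rats, a mean of 4664 ± 3115. Pericytes and smooth muscle followed at 4078 ± 2091 CPM and endothelial cells at 3703 ± 2080 CPM, and these 3 classes did not separate beyond their spread. Perivascular macrophages (1371 ± 633 CPM) and microglia (1324 ± 763 CPM) came next, also without separating. Oligodendrocyte precursors (758 ± 230 CPM) and oligodendrocytes (528 ± 121 CPM) lay below them, within the spread of microglia. Astrocytes held 52.1% of all Apoe UMIs and microglia 5.70%.

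In neurons the Apoe level followed the library. An Apoe UMI was found in 1.11% of the glutamatergic neurons of the naïve rat, 17.8% in the sham rat, 44.7% in the TBI 1 rat and 3.78% in the TBI 2 rat. The deposited matrices also list entries with a stored value of 0, and for Apoe in these neurons there were 5628 such entries in 7461 naïve nuclei, 3617 in 10332 sham nuclei, 378 in 7493 TBI 1 nuclei and 4491 in 7118 TBI 2 nuclei. Over all genes, stored zeros were 15.5, 11.1, 1.63 and 27.4% of the entries of the naïve, sham, TBI 1 and TBI 2 rats. The rat with the fewest stored zeros thus had the highest share of neurons with Apoe. What set the zeros, and their part in the levels of the members outside microglia, was not tested. In microglia there were 82, 84, 22 and 412 stored zeros for Apoe. With stored zeros read as 1 UMI in microglia, the log2 fold changes, TBI over control, were −0.83 for Apoe, −0.79 for Trem2, −0.29 for Tyrobp and 0.24 for Lpl. In that alternative edgeR called 0 members.

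Gpnmb was mostly counted outside microglia. Oligodendrocyte precursors, the dividing glia that give rise to oligodendrocytes, stood at 41.4, 31.4, 28.6 and 28.3 CPM in the naïve, sham, TBI 1 and TBI 2 rats, a mean of 32.4 ± 6.14. They held 37.5% of all Gpnmb UMIs, against 17.4% in glutamatergic neurons and 15.4% in microglia. In 3 of the 4 rats the level in precursors was above that in microglia, and in TBI 2 the microglia were above the precursors. Perivascular macrophages had a higher mean, 54.2 CPM, from 3 UMIs in 44 nuclei. Astrocytes came next after microglia at 4.6 ± 3.07 CPM, and glutamatergic neurons were lowest at 0.907 ± 0.605 CPM.

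Lpl and Cst7 were mostly counted in glutamatergic neurons, which were 32404 of the 55124 nuclei, at a median of 2293.5 UMIs (789 in microglia). Glutamatergic neurons held 74.1% of the Lpl UMIs, at 9.40 ± 2.31 CPM, against 6.92 ± 0.453 CPM in microglia, levels that did not separate beyond their spread. They also held 70.7% of the Cst7 UMIs, at 2.04, 1.30, 0.819 and 0.133 CPM in the naïve, sham, TBI 1 and TBI 2 rats. Cst7 was thus lower in both TBI rats than in both controls, on 99 UMIs in all and without a call, as were 8.02% of the genes tested in these neurons. Its mean level there was 1.07 ± 0.804 CPM. That did not separate from oligodendrocyte precursors (1.45 ± 1.67 CPM), GABAergic neurons (1.24 ± 0.712 CPM), oligodendrocytes (1.11 ± 1.03 CPM) or astrocytes (1.07 ± 0.494 CPM).

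**Figure D5:**
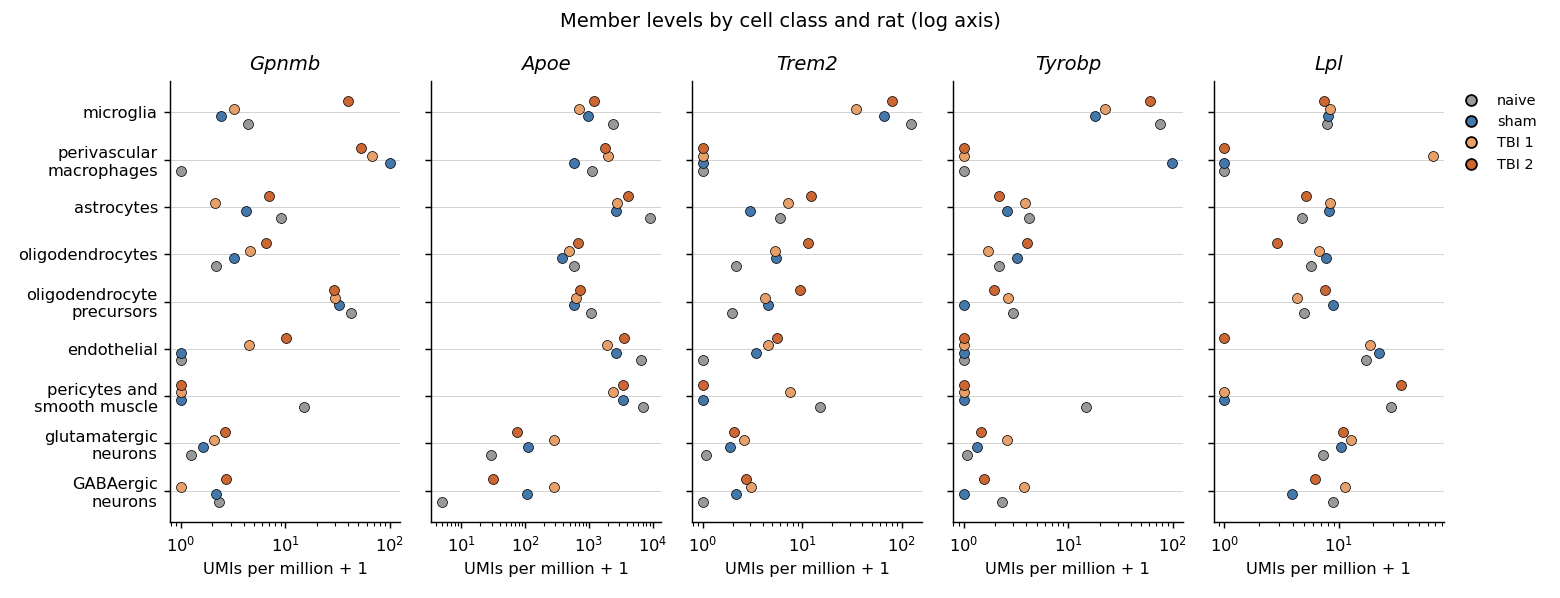
CPM plus 1 (log axis) of Gpnmb, Apoe, Trem2, Tyrobp and Lpl in 9 classes of nuclei, 1 point per rat. Trem2 is highest in microglia, as is Tyrobp apart from 1 UMI in the perivascular macrophages of the sham rat, Apoe is highest in astrocytes and vascular cells, and Gpnmb is steady in oligodendrocyte precursors while its microglial level is high in TBI 2 alone.

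Outside microglia, 18 tests of a member in a class could be made over 8 classes, and edgeR and DESeq2 each called 0 of them. Over all genes, edgeR called 0% in each of these 8 classes, with 7 to 1212 genes per class at an unadjusted p under 0.05, and DESeq2 called 0 to 13. Without a call, 9 of the 18 had both TBI rats on 1 side of both controls. For each class and direction in which this was seen, it held for 8.02 to 25.2% of all genes tested. Each of these shares counts 1 direction, while the 9 of 18 count both. Classes and directions without a separated member are left out, so the shares are no matching reference for the 9.

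In glutamatergic neurons, 4 of the 6 members tested were higher in both TBI rats, against 20.3% of all genes tested there, and 1 was lower, against 8.02%. The log2 fold changes were 2.19 for Tyrobp, 1.57 for Gpnmb, 1.39 for Trem2, 0.40 for Lpl and −1.86 for Cst7 (SE 0.35 to 0.96, adjusted p above 0.99). As each rat was left out, they ranged from 1.13 to 3.39 for Tyrobp, from 1.09 to 2.30 for Gpnmb, from 0.56 to 3.76 for Trem2, from 0.16 to 0.68 for Lpl and from −3.60 to −1.18 for Cst7. Gpnmb, Trem2 and Tyrobp were found in few of these nuclei, and their levels lay at or under 1.66 CPM in every rat. Whether these UMIs were free RNA was not tested. In astrocytes, Trem2 stood at 4.94 and 2.0 CPM in the naïve and sham rats and at 6.26 and 11.3 CPM in the TBI rats. Both TBI rats were higher, as for 25.2% of the genes tested in astrocytes, with a log2 fold change of 1.21 (SE 0.60, adjusted p = 0.506), which ranged from 0.71 without TBI 2 to 2.04 without the naïve rat.

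The values of Apoe had both signs. In astrocytes it had a log2 fold change of −0.87 (SE 0.47, adjusted p = 0.544), which was 0.31 without the naïve rat and −1.50 (adjusted p = 1.27e-06) without the sham rat. In the latter fit the naïve rat was the only control, assumed to vary like the TBI rats, and 500 of 11459 genes (4.36%) were called. In pericytes and smooth muscle the value was −0.95 (SE 0.39, adjusted p = 0.472; −0.26 without the naïve rat), with both TBI rats lower, as for 17.5% of the genes tested there. In perivascular macrophages it was 1.27 (SE 0.44, adjusted p = 0.968), with both TBI rats higher, as for 9.65% of the genes. Those 2 values had the smallest unadjusted p of the 18, and both were under 0.05. Gpnmb in oligodendrocyte precursors was at −0.39 (SE 0.31, adjusted p = 0.999), with both TBI rats lower, as for 11.3% of the genes.

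The difference between the injury effects in microglia and in astrocytes was tested directly, with the rat as a block. It was 3.69 on the log2 scale for Gpnmb (SE 0.92, edgeR adjusted p = 0.627) and −2.0 for Trem2 (SE 0.46, adjusted p = 0.627). Both had an unadjusted p under 0.05, as did 591 genes, and neither passed the adjustment, in a test that called 1 of 11673 genes (0.00857%). The Gpnmb difference rested on the TBI 2 rat: without it the value was 2.22 (adjusted p = 1), and without the TBI 1 rat it was 3.99 (adjusted p = 0.0391), in a fit with TBI 2 as the only TBI rat, assumed to vary like the controls, that called 26 of 11673 genes (0.223%). For Apoe (−0.10), Tyrobp (0.03) and Lpl (−0.08) the difference was small against its SE.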

How the data were processed

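Bulk RNA-seq came from 3 TBI and 3 sham rats, and snRNA-seq from 2 TBI, 1 sham and 1 naïve rat, as the labels group and number them; replicates are separate samples, and p-values measure the spread between them.

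For bulk RNA-seq, the authors made polyA libraries with a directional kit, mapped reads with kallisto in ExpressAnalyst to the rat reference Rnor_6.0 and deposited estimated counts for 31715 transcripts. A gene table of 14166 rows, deposited as log2 CPM, leaves out what the authors filtered: features without annotation, with low totals or with the least variance. The deposited rows carry Entrez numbers, of which 13778 were matched to a symbol. Transcripts could not be paired with genes here, so gene counts were worked back from the deposited log2 CPM and the library totals, rounded to whole numbers for the count tests, and summed to 97.8 to 98.5% of the transcript totals. For snRNA-seq, the authors used Cell Ranger over exons and introns of Rnor_6.0 and deposited counts per gene and nucleus before filtering, read here as UMIs. The matrices also store zeros, from 1.63% of the entries in TBI 1 to 27.4% in TBI 2, and the study names no step that would leave them. Whether counts were altered after Cell Ranger, and differently by rat, was not tested. This limits comparisons of levels between rats.

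The study's filters were applied to nuclei (at least 500 UMIs and 300 genes, log10 genes per UMI of at least 0.8, under 5% mitochondrial and 2% ribosomal UMIs). No doublet caller was run, and stored zeros were read as 0, except in an alternative for gated microglia that read each as 1 UMI. A nucleus was assigned to a glial or vascular class with UMIs of at least 3 of its markers, a marker share of at least 2 times the mean of the series and a lead of 1.5 times over the next such class. Perivascular macrophages needed 2 of their markers, and neurons were taken from nuclei that met no glial or vascular rule. Clusters (scanpy 1.11.5, leidenalg 0.10.2, without the members) gave 23 groups, of which 2 were led by microglial markers.

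Tests were edgeR 4.0.16 quasi-likelihood fits with TMM and Benjamini-Hochberg adjustment over all genes kept, called at an adjusted p under 0.05, on bulk counts without a filter and on UMIs summed per rat and class after filterByExpr. DESeq2 1.42.0 and limma 3.58.1 were alternatives. The scripts were tested on simulated data. All 9 members are described. Of the lists, genes were named by a rule on names, together with any gene called by edgeR or DESeq2, and the likeness search named the 5 closest genes with a mean of at least 1 CPM. In the lipid handling list, 1 gene is not reported here and is left out of the counts, median and plot of that list. The members, lists and rules were chosen with earlier results of these data known.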

Additional observations from a re-analysis of the deposited data

Results flagged for a closer look

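For 2 members the differences between TBI and control had opposite signs in different classes of nuclei. Within each class, every TBI rat lay on the same side of every control rat. The cases were picked for this lack of overlap, and none of the values was called (edgeR adjusted p of at least 0.472). The difference between the classes was not tested in either case. Gpnmb had a log2 fold change, TBI over control, of 1.57 in glutamatergic neurons, where it was found in at most 0.320% of nuclei, and of −0.39 in oligodendrocyte precursors. Both TBI rats lay above both controls for 20.3% of the genes tested in these neurons, and below for 11.3% in the precursors. Apoe had a log2 fold change of 1.27 in perivascular macrophages, which numbered 44 nuclei over the 4 rats, and of −0.95 in pericytes and smooth muscle, which numbered 132. These directions held for 9.65% and 17.5% of the genes tested there. Without the naïve rat the 2 Apoe values were 1.69 and −0.26.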

How the results depend on the processing

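Among 40 single values, 289 alternatives left 20 reversed, in 12 of the values, and 11 gained a call where the tests reported had called 0 members. In bulk, the count of members called, 0 with edgeR, was 4 by DESeq2, 4 by the study's own adjustment (restricted to p under 0.05, which called 1525 of 14166 genes), and 1 (Gpnmb, adjusted p = 0.0194) with the replicate number as a block, which called 61. At the study's thresholds (adjusted p of 0.01 and log2 fold change of 1.5), an alternative chosen after seeing the data, DESeq2 with that adjustment called 1 member (Gpnmb), 9 partner genes and 127 genes in all. The count of partner genes called was 31 with DESeq2, 62 with that adjustment and 7 with the replicate block. Replicate numbers did not pair all the bulk samples. The correlations of deviations were 0.367, 0.223 and −0.0519 for numbers 1, 2 and 3. Sham 1 and sham 2 correlated best with the TBI library of their own number, and sham 3 with TBI 2 (0.141). With limma, DESeq2 size factors, filterByExpr, the period of the injury or sham procedure (before July or later) as a covariate and each library left out, 0 members were called. The same held with edgeR at the study's thresholds, which are stricter than the 0.05 at which edgeR called none. The number of members at the smallest permutation p that the libraries allowed, relative to the microglial markers, was 3. It ranged from 2 (without TBI 2) to 5 (without sham 2). The planned sum of transcript counts per gene was not run.

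No paired analysis was possible because the nucleus groups share only 1 replicate number, and the test of microglia against astrocytes already holds the rat as a block. In gated microglia the count of members called was 1 (34 of 17314 genes) with no filter on low counts. Over the other classes it ranged from 0 to 1 as each rat was left out (Apoe in astrocytes without sham, where 500 of 11459 genes were called), and for the difference between microglia and astrocytes also from 0 to 1 (Gpnmb without TBI 1, where 26 of 11673 genes were called). Tyrobp in gated microglia was 0.57 with at least 1000 UMIs per nucleus and ranged from −1.15 to 1.2 as each rat was left out. Leave-one-out ranges that crossed 0 were also found for Gpnmb (−2.39 to 0.0710), Apoe (−1.50 to 0.31) and Lpl (−0.43 to 0.55) in astrocytes, for Apoe in oligodendrocytes (−0.16 to 0.52), oligodendrocyte precursors (−0.75 to 0.16), endothelial cells (−1.29 to 0.0396) and GABAergic neurons (−0.91 to 5.18), for Lpl in GABAergic neurons (−0.12 to 1.36), and for the difference between microglia and astrocytes in Apoe (−0.37 to 0.19), Tyrobp (−1.24 to 1.41) and Lpl (−0.46 to 0.33). In microglia, at most 1 UMI per rat limits Cst7 and Itgax, and at most 7 limit Clec7a.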
